A study of Mus musculus with 16 samples.

Results

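The genes described here are 9 that carry, restrain or respond to transforming growth factor beta (TGF-beta), a secreted protein that drives scarring. They are the ligand genes Tgfb1, Tgfb2 and Tgfb3, the receptor genes Tgfbr1 and Tgfbr2, the signal carrier Smad3, its inhibitor Smad7, the target gene Ccn2 (formerly Ctgf) and the myofibroblast gene Acta2. They were picked by symbol, and all 9 were found among the 22322 genes of the deposited tables. The mice were diet-induced obese (DIO) and received halofuginone at 100 μg/kg or vehicle into the peritoneum every 2 days, with tissue collected after 8 weeks. The vehicle groups carry HFD in their titles and the drug groups H100. There were 5 liver libraries of vehicle and 5 of halofuginone mice. White adipose tissue gave 3 of each. No label states strain, sex, age, fat depot or batch, or whether a liver and a fat library with the same number came from 1 mouse. Nor do the labels say that the libraries of a group came from separate mice, so p-values measure the spread between these samples.

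TGF-beta ligands are secreted bound to a latency peptide and are released at the cell surface by integrins, thrombospondin and other partners. The free ligand joins the type II receptor (Tgfbr2) to the type I receptor (Tgfbr1), which phosphorylates Smad2 and Smad3, and these enter the nucleus with Smad4. Smad7, itself induced by the pathway, blocks the type I receptor. In injured liver, stellate cells respond by turning into myofibroblasts that contain smooth muscle alpha-actin (the product of Acta2) and secrete collagen. Halofuginone inhibits prolyl-tRNA synthetase and is known for reducing Smad3 phosphorylation, a change in protein that RNA sequencing does not measure.

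The promoter of Acta2 shows the kind of sequence through which contractile genes are controlled, CArG boxes that bind serum response factor. RefSeq promoter windows (GRCm38.p6) were at hand for 6 of the 9 genes, not for Ccn2, Smad7 and Tgfb3. Printed are the 250 bases before the start site of Acta2 (chr19:34255374-34255623, minus strand) and, to show a second contractile gene, of Myl9 (chr2:156775214-156775463, plus strand). Myl9, a myosin light chain gene, was chosen after its values were seen. Capitals mark CArG boxes, searched as CC and GG with 6 letters between them of which at most 1 is G or C, and the letters CATTCC or their complement GGAATG, the core bound by TEAD factors.
Acta2: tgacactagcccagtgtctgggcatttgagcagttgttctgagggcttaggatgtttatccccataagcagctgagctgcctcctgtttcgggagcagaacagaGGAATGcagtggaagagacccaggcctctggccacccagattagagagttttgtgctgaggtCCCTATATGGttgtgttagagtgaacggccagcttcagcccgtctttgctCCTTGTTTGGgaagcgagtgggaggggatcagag
Myl9: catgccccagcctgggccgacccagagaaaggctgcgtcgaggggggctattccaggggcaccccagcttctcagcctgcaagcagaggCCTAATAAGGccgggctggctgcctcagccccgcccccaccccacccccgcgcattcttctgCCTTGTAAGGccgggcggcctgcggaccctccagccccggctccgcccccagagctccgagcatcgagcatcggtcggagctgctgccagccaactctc
Acta2 held CCCTATATGG at 84 to 75 bases and CCTTGTTTGG at 34 to 25 bases before the start site, and GGAATG at 146 to 141 bases before it. It also held GTCTG, the complement of the Smad-binding letters CAGAC, 231 bases and more before the start. In Myl9 CCTAATAAGG lay 161 to 152 bases and CCTTGTAAGG 99 to 90 bases before the start. Such a box, on either strand, stood in 8.59% of all 32851 windows and in 26.1% of the 23 windows of the myofibroblast and contractile list described below. The share was not particular to that list, with 26.7% of the 15 windows of the receptor list. The ligand, Smad and target lists had it in 8.70%, 4.55% and 15.4% of their windows. Of the 7 windows of the 6 genes 28.6% had it, those of Acta2 and Tgfbr2. The stricter form with only A and T between CC and GG stood in 1.47% of all windows and in that of Myl9, but not in that of Acta2. CATTCC stood in 12.6% of all windows and CAGAC in 42.2%, both strands read. These matches describe letters and not binding.

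Libraries held 20309956 to 31980683 counts in liver and 17070614 to 21387799 in fat. The tissue labels were matched by defining markers, with Alb at 26739 to 98802 CPM (counts per 1000000 counts of the library, scaled within each tissue by TMM) in liver against 0.750 to 4.59 in fat, and Adipoq at 991 to 2543 CPM in fat against at most 0.0396 in liver. Halofuginone liver 1 had the highest summed hepatocyte marker level of the treated livers, at 113845 CPM. Halofuginone livers 2 to 5 were spread widely, at 42969, 38466, 90236 and 78824 CPM. Vehicle fat 3 stood apart in fat, with 11588 CPM of adipocyte markers against 18632 to 22296 CPM elsewhere, and 76.6 CPM of epididymis markers against 0.540 to 13.6 CPM.

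In liver, halofuginone went with less Ccn2 and Acta2 and more Smad7, while the ligands, the receptors and Smad3 were not called. Ccn2, which encodes a matricellular growth factor, fell to a fold of 0.473 and Acta2 to a fold of 0.610. Smad7 rose by a fold of 1.29. So 3 of the 8 genes tested passed (edgeR's quasi-likelihood test, Benjamini-Hochberg adjusted p under 0.05), 1 higher and 2 lower, which is 37.5%. Over all 12311 genes tested 23.2% passed, 12.7% higher and 10.5% lower. The groups did not overlap in 3 of the 8 genes tested, against 11.7% of all genes. These were the same 3 that were called, so this is no separate support for the calls. Without halofuginone liver 1 the count was again 3 of 8, now beside 42.8% of all genes, so the share of the 9 genes was then below that of all genes. Without halofuginone liver 3 the count was 1, beside 10.3% of all genes. In bulk tissue, fewer cells of a type and less RNA per cell cannot be told apart.

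Ccn2 stood at 9.90, 12.7, 10.02, 9.78 and 15.0 CPM in vehicle livers 1 to 5, and at 6.11, 5.67, 4.65, 3.78 and 6.96 CPM in halofuginone livers 1 to 5. Every treated liver lay below every vehicle liver, with vehicle liver 5 the highest. The log2 fold change was −1.08 (SE 0.18, 95% interval −1.48 to −0.68, edgeR adjusted p 0.00564). Leaving out each library in turn gave −1.19 to −0.96, with an edgeR adjusted p of at most 0.0193.

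Acta2 was low in liver, at 2.34, 3.76, 2.61, 3.92 and 3.11 CPM in vehicle livers 1 to 5 (56 to 105 counts). Halofuginone livers 1 to 5 held 1.69, 1.94, 1.82, 1.81 and 2.31 CPM (34 to 62 counts). The groups did not overlap, but the gap between the lowest vehicle liver and the highest treated liver was only 2.34 against 2.31 CPM. Its log2 fold change was −0.71 (SE 0.18, 95% interval −1.11 to −0.32, edgeR adjusted p 0.0198). The call was lost without halofuginone liver 3, at −0.69 with an edgeR adjusted p of 0.0524.

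Smad7, the inhibitory Smad, stood at 6.02, 5.11, 4.29, 4.74 and 5.93 CPM in vehicle livers 1 to 5. Under halofuginone it stood at 6.81, 6.34, 7.23, 6.60 and 6.85 CPM. The treated livers varied little among themselves (6.76 ± 0.329 CPM, SD, n = 5) and all lay above the vehicle livers (5.22 ± 0.751 CPM, SD, n = 5). The log2 fold change was 0.37 (SE 0.12, 95% interval 0.11 to 0.63) and the edgeR adjusted p 0.0440. Of the 10 fits that leave out 1 library, 2 kept the call, and the edgeR adjusted p ran from 0.0422 to 0.103. The rise was therefore close to the threshold, whereas its direction held in each of these fits (log2 fold changes 0.30 to 0.43).

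**Figure D1:**
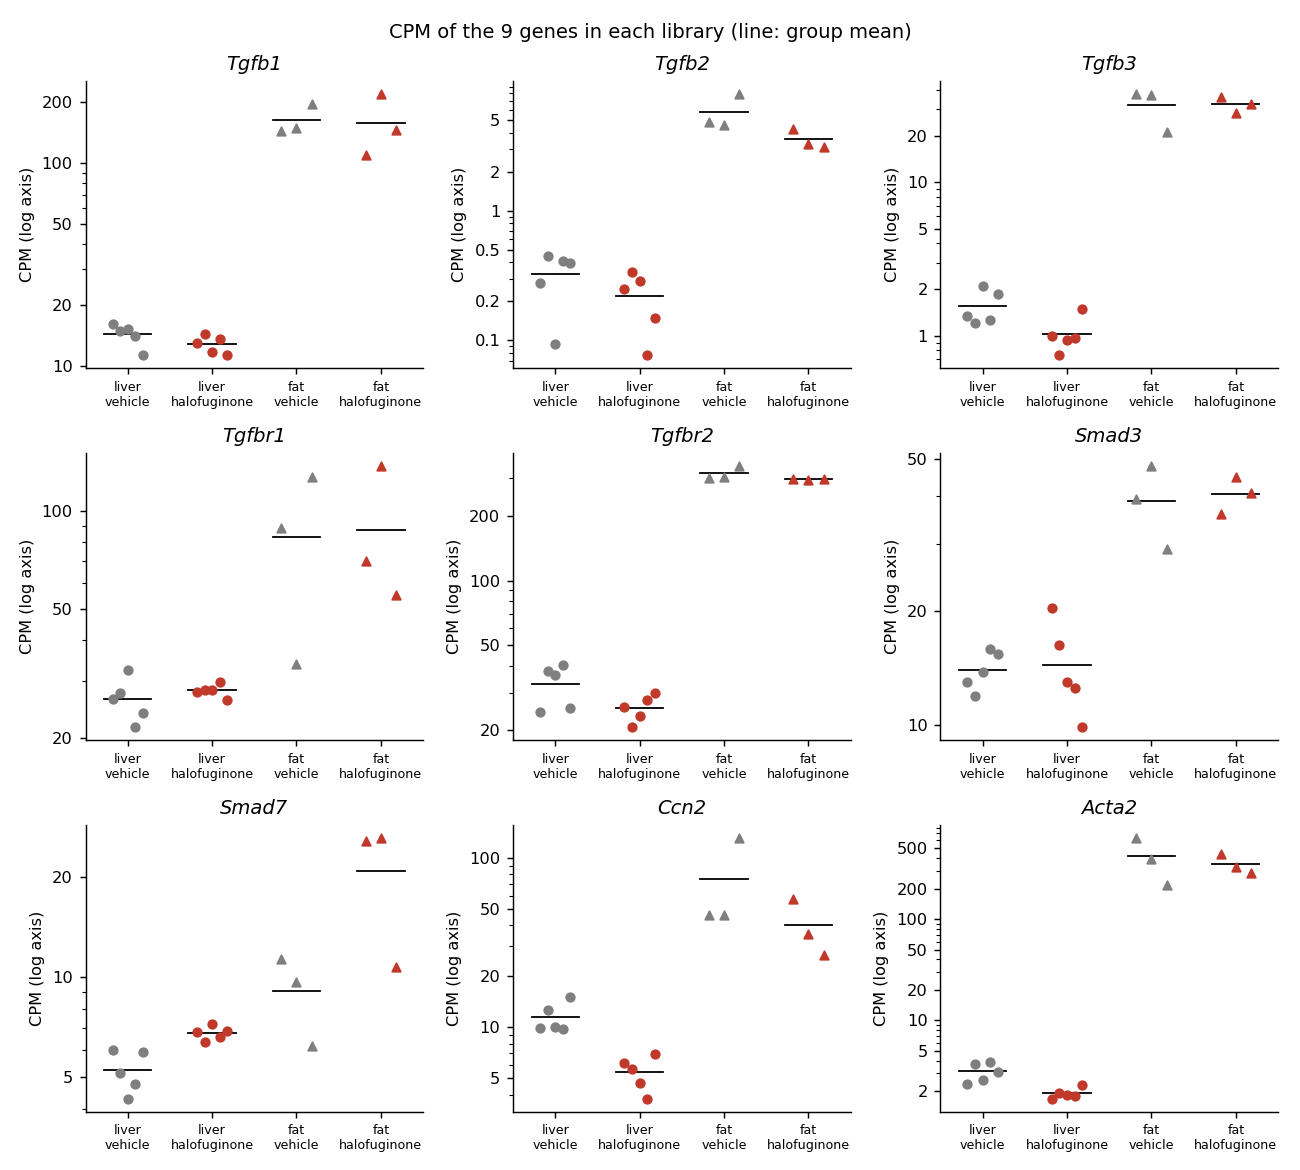
CPM of each of the 9 genes on a log axis, 1 point a library (circles liver, triangles fat, grey vehicle, red halofuginone), with a line at the group mean and CPM scaled within each tissue. In liver the red points of Ccn2 and Acta2 lie below and those of Smad7 above all grey points, while in fat vehicle fat 3 is the high point of Ccn2 at 132 CPM.

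Among the ligands, Tgfb1, the main form in adult tissue, stood at 16.1, 14.9, 15.2, 14.1 and 11.3 CPM in vehicle livers 1 to 5 and at 13.0, 14.3, 11.7, 13.5 and 11.3 CPM in halofuginone livers 1 to 5. The groups overlapped, and the log2 fold change was −0.16 (SE 0.11, 95% interval −0.41 to 0.08, edgeR adjusted p 0.302). Tgfb3 stood at 1.35, 1.20, 2.10, 1.27 and 1.87 CPM in vehicle and at 0.994, 0.746, 0.930, 0.965 and 1.49 CPM under halofuginone. In Tgfb3 4 of the 5 treated livers lay below every vehicle liver and halofuginone liver 5 lay inside their range. Its log2 fold change of −0.60 (SE 0.24, unadjusted p 0.0286, edgeR adjusted p 0.0881) did not pass, on 20 to 57 counts a library. Tgfb2 had 2 to 12 counts in each liver library and was too low to test, so a difference in it was not detectable at this depth.

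The receptors bind the ligand and carry the kinase activity. Tgfbr2 stood at 24.2, 37.7, 36.4, 40.4 and 25.4 CPM in vehicle livers 1 to 5 and at 25.8, 20.8, 23.4, 27.7 and 29.9 CPM in halofuginone livers 1 to 5. Vehicle livers 2, 3 and 4 were above every treated liver, whereas vehicle livers 1 and 5 were among them. The log2 fold change of Tgfbr2 was −0.36 (SE 0.16, unadjusted p 0.0443, edgeR adjusted p 0.118). Tgfbr1 stood at 21.7 to 32.5 CPM in vehicle and 26.2 to 29.9 CPM under halofuginone, so that the treated range lay inside that of vehicle. Its log2 fold change was 0.09 (SE 0.11, 95% interval −0.14 to 0.32, edgeR adjusted p 0.568).

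Smad3, which carries the signal to the nucleus, stood at 13.0, 12.0, 13.8, 15.8 and 15.4 CPM in vehicle livers 1 to 5 and at 20.3, 16.3, 13.0, 12.5 and 9.90 CPM in halofuginone livers 1 to 5. Treated livers were both the highest and the lowest of the 10. The log2 fold change was 0.04 (SE 0.17, 95% interval −0.34 to 0.42, edgeR adjusted p 0.894), and −0.14 without halofuginone liver 1, the highest. RNA of Smad3 says nothing of how much Smad3 protein was phosphorylated.

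**Figure D2:**
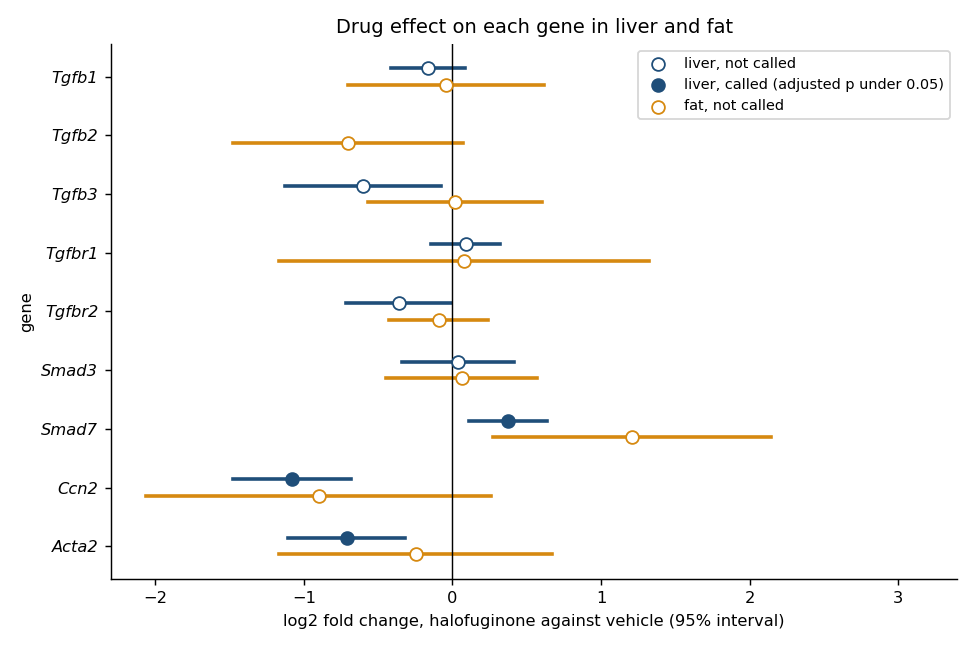
Log2 fold change of halofuginone against vehicle for each gene with its 95% interval, liver in blue and fat in orange, filled where the edgeR adjusted p is under 0.05. The 3 filled points are Smad7 (0.37), Ccn2 (−1.08) and Acta2 (−0.71) in liver, no fat point is filled, and Tgfb2 has no liver point because it was not tested.

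Levels of different genes were compared on the FPKM scale, which divides by gene length and library size. In vehicle liver the mean FPKM ran from Tgfb1 (6.26 ± 0.797) and Tgfbr2 (6.13 ± 1.45) over Tgfbr1 (4.67 ± 0.612), Ccn2 (4.53 ± 0.901) and Smad3 (2.61 ± 0.372) to Acta2 (1.59 ± 0.395), Smad7 (1.51 ± 0.292), Tgfb3 (0.436 ± 0.107) and Tgfb2 (0.066 ± 0.0279, SD, n = 5 each). The library ranges of the first 4, Tgfb1, Tgfbr2, Tgfbr1 and Ccn2, overlapped, as did those of Acta2 and Smad7. Smad3 (2.16 to 3.09 FPKM) lay apart from the genes above and below it. Under halofuginone Smad7 (1.71 to 3.00 FPKM) stood above Acta2 (0.880 to 1.24 FPKM) with no overlap, where in vehicle the ranges were 1.13 to 1.82 and 1.09 to 2.04 FPKM. On this scale the vehicle and treated ranges of both genes overlapped, unlike in CPM. The FPKM of a gene did not follow its CPM from library to library. Smad7 in halofuginone livers 3 and 4 had 7.23 and 6.60 CPM but 3.00 and 1.71 FPKM. The cause of the overlap was not tested. Under halofuginone Ccn2 (1.57 to 2.99 FPKM) overlapped Smad3 (2.59 to 3.97 FPKM), which it exceeded in every vehicle liver.

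In vehicle fat the order was different. Acta2 led at 209 ± 104 FPKM, ahead of Tgfb1 (74.0 ± 10.997), Tgfbr2 (56.6 ± 1.80), Ccn2 (30.0 ± 18.8), Tgfbr1 (14.7 ± 7.71), Tgfb3 (9.31 ± 2.96), Smad3 (7.49 ± 2.11), Smad7 (3.11 ± 1.12) and Tgfb2 (1.14 ± 0.371, SD, n = 3 each). The library ranges of Acta2, Tgfb1, Tgfbr2 and Ccn2 did not overlap with each other, and those of Smad3, Smad7 and Tgfb2 did not either. Ccn2 and Tgfbr1, Tgfbr1 and Tgfb3, and Tgfb3 and Smad3 were neighbours that overlapped.

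**Figure D3:**
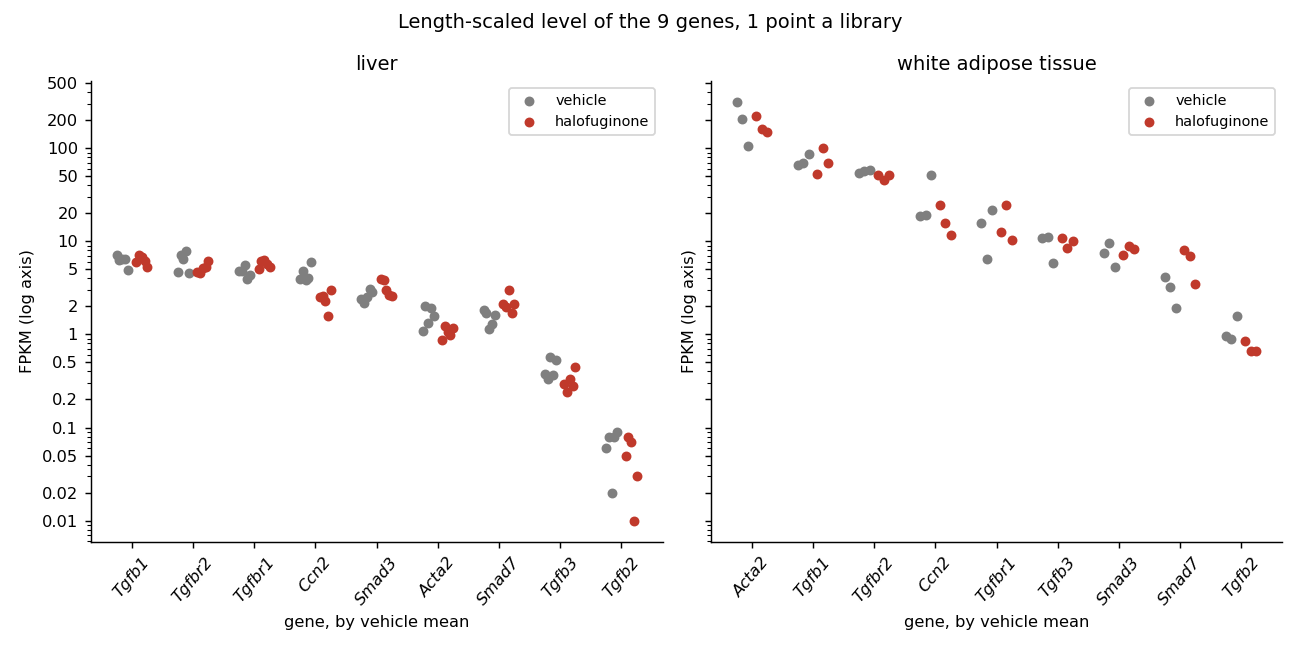
FPKM of the 9 genes on a log axis in liver and white adipose tissue, ordered by the vehicle mean, 1 point a library, grey vehicle and red halofuginone. Acta2 is the sixth gene in vehicle liver at a mean of 1.59 FPKM and the first in vehicle fat at 209 FPKM, and Tgfb2 is the lowest in both.

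The other genes of the pathway were taken from 5 lists with 97 genes besides the 9. In liver 82 of them were tested, of which 8 rose and 17 fell by edgeR's adjusted p, beside the 12.7% higher and 10.5% lower of all genes. The median log2 fold change over all genes was 0.02.

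Among genes that supply or release the ligands, 1 of 14 tested rose and 3 fell, with a list median of −0.28. Thbs1 encodes thrombospondin 1, which activates latent TGF-beta. It stood at 2.26, 11.3, 8.58, 4.07 and 2.98 CPM in vehicle and at 1.09, 1.01, 0.966, 0.617 and 1.303 CPM in treated livers, so that the log2 fold change was −2.53 (SE 0.45, adjusted p 0.00633 by edgeR). The latent-binding protein gene Ltbp4 also fell (−0.54, SE 0.16, adjusted p 0.0357), as did Ltbp3 (−0.88, SE 0.27, adjusted p 0.0363). Itgb5, an integrin subunit gene, rose from 54.9 to 74.6 CPM in vehicle to 73.6 to 91.6 CPM (0.38, SE 0.11, adjusted p 0.0337). Thbs1 kept its call when any 1 library was left out, but Ltbp4 and Itgb5 each kept it in 3 of these 10 fits. The list had 2 higher and 7 lower without halofuginone liver 1, where 42.8% of all genes were called. It had 1 lower without any of vehicle livers 2, 4 and 5 or halofuginone livers 2 to 5, and 0 higher without any of vehicle livers 1, 2, 3 and 5 or halofuginone livers 3 to 5, by edgeR.

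Of the 9 other receptor genes tested, 1 rose and 0 fell by edgeR, with a list median of 0.04. Acvr1b encodes the type I receptor for activins. It stood at 12.2, 9.37, 11.7, 13.8 and 12.5 CPM in vehicle livers 1 to 5 and at 12.5, 19.1, 18.5, 19.1 and 22.1 CPM in treated livers (log2 fold change 0.62, SE 0.15, edgeR adjusted p 0.0175). Halofuginone liver 1 was the only treated liver inside the vehicle range. The type I receptor gene Acvr1 (−0.23, SE 0.11, adjusted p 0.148) and the type II receptor gene Acvr2b (0.38, SE 0.25, adjusted p 0.271) had the next smallest p-values and did not pass. Without halofuginone liver 1 Acvr1 was at −0.30 with an edgeR adjusted p of 0.0494.

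Among the other Smads, their partners and inhibitors 4 of 21 rose and 1 fell, with a list median of 0.12. Smurf1, an E3 ligase that works with Smad7, went from 12.4 to 17.3 CPM to 15.9 to 22.9 CPM (0.44, SE 0.12, edgeR adjusted p 0.0269). Skil, a repressor of Smad transcription that the pathway induces, was at 11.4 to 18.2 CPM in vehicle and 14.7 to 30.4 CPM under halofuginone (0.66, SE 0.20, adjusted p 0.0378). Zfyve9, which anchors Smad2 and Smad3 at the receptor, rose by 0.32 (SE 0.09, adjusted p 0.0313), and the repressor Tgif1 by 0.63 (SE 0.21, adjusted p 0.0453). These calls were near the threshold, and Smurf1 and Skil kept theirs in 3 and Zfyve9 in 2 of the 10 fits without 1 library. Leaving out 1 library gave 0 to 4 higher genes, and the counts of 0 came without vehicle liver 4 or 5 or halofuginone liver 3 or 5. Smad2, Smad4 and Smad6 had log2 fold changes of 0.07, 0.12 and 0.15, and none passed.

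Of the other transcriptional targets 2 of 20 rose and 4 fell, with a list median of −0.31. The 4 that fell were the collagen genes Col1a1, Col1a2 and Col3a1 and Tgfb1i1. Tgfb1i1 encodes the focal adhesion protein Hic-5 and stood at 2.53, 2.15, 3.17, 2.65 and 1.84 CPM in vehicle and at 1.34, 0.708, 1.07, 1.35 and 1.34 CPM under halofuginone. The groups did not overlap (log2 fold change −1.08, SE 0.22, edgeR adjusted p 0.0103). The 2 that rose were Skil and Id1. Id1, a target of the BMP branch, stood at 13.7, 5.01, 10.2, 6.12 and 7.54 CPM in vehicle and at 13.3, 23.7, 26.4, 24.5 and 32.3 CPM in treated livers (1.50, SE 0.29, adjusted p 0.00803). Only halofuginone liver 1 was inside the vehicle range.

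Myofibroblast and contractile genes held the most calls of the 5 lists, with 9 of 20 lower and 1 higher and a list median of −0.34. Tpm2, a tropomyosin gene, stood at 12.8, 12.3, 15.4, 15.8 and 14.9 CPM in vehicle livers 1 to 5 and at 5.46, 1.68, 1.43, 2.01 and 1.38 CPM in halofuginone livers 1 to 5 (−2.61, SE 0.34, edgeR adjusted p 0.00268). Tagln, which encodes transgelin, stood at 5.19, 7.46, 6.11, 6.80 and 5.54 CPM and at 2.73, 1.64, 1.29, 1.74 and 2.98 CPM (−1.59, SE 0.23, adjusted p 0.00326). Both separated the groups fully, and halofuginone liver 1 was the highest treated liver for Tpm2. The matrix gene Postn fell by 0.76 (SE 0.14, adjusted p 0.00719), a call lost in 1 edgeR fit of all 4 groups (adjusted p 0.144). Myl9, whose promoter is printed above, stood at 1.39 to 2.17 CPM in vehicle and 0.694 to 1.23 CPM under halofuginone (−0.85, SE 0.20, adjusted p 0.0173). The growth factor receptor gene Pdgfrb (−0.64), the intermediate filament gene Vim (−0.89), Cnn2 (−0.79), Mrtfb (−0.37) and Myh11 (−0.56) also fell. Actn1, an alpha-actinin gene, rose by 0.41 (SE 0.12, adjusted p 0.0320). Leaving out 1 library gave 6 to 10 lower genes, and 6 were lower by library size alone, by limma on FPKM and in 1 fit of all 4 groups.

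**Figure D4:**
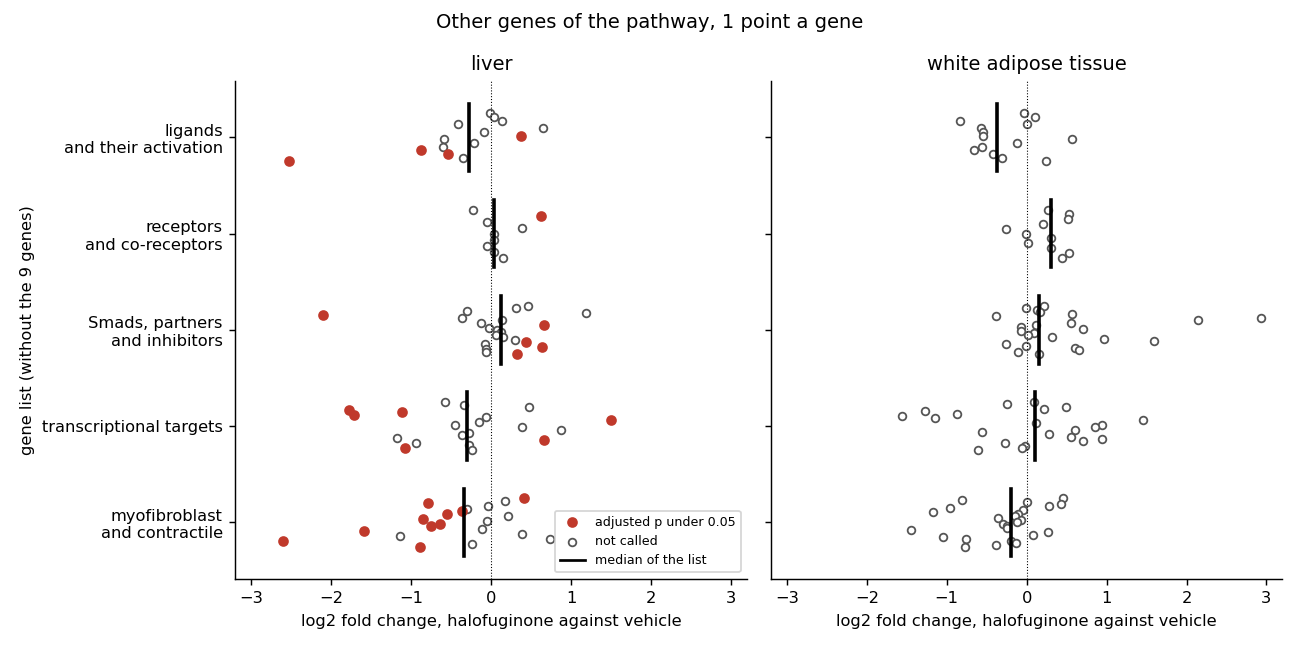
Log2 fold change of halofuginone against vehicle for the genes of the 5 pathway lists without the 9 genes, 1 point a gene, red where the edgeR adjusted p is under 0.05, with a line at each list's median. In liver the 9 red points below 0 in the myofibroblast and contractile list reach −2.61 for Tpm2, and in fat there is no red point.

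Of the marker sums given here, those of vascular smooth muscle and of hepatocytes separated the liver groups, the former only with Tagln included. The summed level of 8 vascular smooth muscle markers was 15.2, 21.4, 17.1, 21.4 and 19.5 CPM in vehicle livers 1 to 5 and 11.8, 12.2, 10.2, 9.80 and 13.7 CPM in halofuginone livers 1 to 5, with no overlap. Of this sum Tagln made up 5.19 to 7.46 CPM in vehicle and 1.29 to 2.98 CPM in treated livers. The separation of the sum rested on Tagln. With this gene taken out, halofuginone livers 2 and 5 lay above vehicle liver 1. Of the 6 tested, Tagln, Smtn (−0.60, edgeR adjusted p 0.0402) and Myh11 (adjusted p 0.0405) fell, and 5 of the 8 markers, Tagln and Myh11 among them, are also in the myofibroblast and contractile list. The 10 stellate cell markers summed to 406 to 529 CPM in vehicle and 317 to 462 CPM under halofuginone, with overlap, and 2 of 10 were called, beside 23.2% of all genes. Pdgfrb and Reln (−0.56, adjusted p 0.0280) fell, while Lrat, which encodes the retinol-esterifying enzyme of stellate cells, did not pass (−0.18, SE 0.13, adjusted p 0.334). Endothelial markers summed to 210 to 251 and 189 to 252 CPM, with Pecam1 (−0.34, adjusted p 0.0118) and Cdh5 (−0.40, adjusted p 0.0249) lower and Kdr (0.47, adjusted p 0.0423) higher of 8. Macrophage markers summed to 323 to 465 and 294 to 504 CPM, with Cd163 (0.78, adjusted p 0.0255) higher and none lower of 8 by edgeR. Progenitor and fibroblast markers summed to 135 to 165 and 102 to 137 CPM, with Dpp4 (−0.55, adjusted p 0.0209) lower and Col15a1 (1.85, adjusted p 0.0114) higher of 7 tested. Hepatocyte markers summed to 120738 to 132035 CPM in vehicle and 38466 to 113845 CPM under halofuginone, with no overlap and 2 of 8 lower. Adipocyte markers summed to 72.6 to 163 and 30.5 to 82.0 CPM, and 3 of 4 tested were lower by edgeR. These were Fabp4 (−1.63, adjusted p 0.00374), Pparg (−1.26, adjusted p 0.00947) and Lipe (−0.40, adjusted p 0.0147). Lep was at 0 counts in every liver and Adipoq at no more than 0.0396 CPM. The part of these shifts in the results on Ccn2, Acta2 and Smad7 was not tested.

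**Figure D5:**
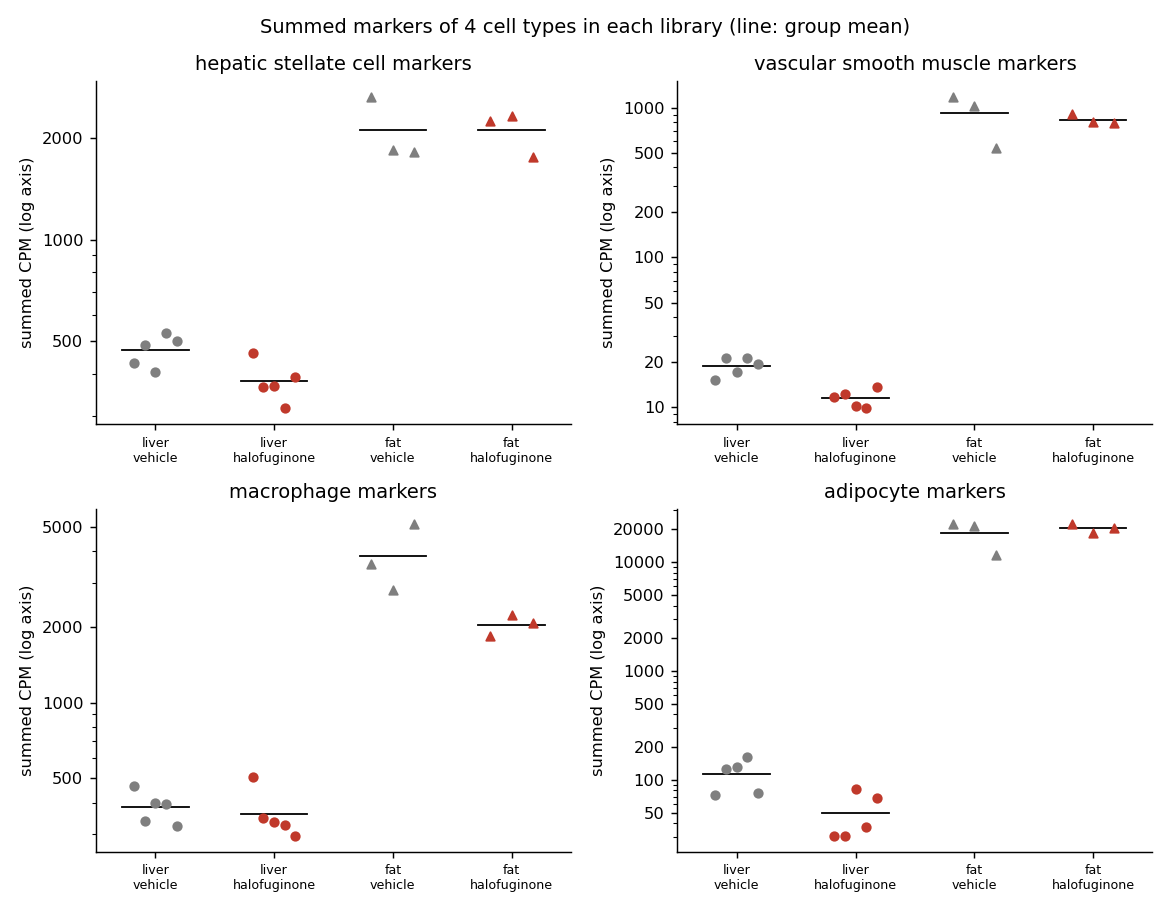
Summed CPM of marker genes of 4 cell types on a log axis, 1 point a library, with a line at the group mean, grey vehicle and red halofuginone. The smooth muscle sum in liver, which includes Tagln, does not overlap between 9.80 to 13.7 CPM under halofuginone and 15.2 to 21.4 CPM in vehicle. With Tagln taken out the liver groups overlap. The adipocyte sum of vehicle fat 3 is the low point of fat at 11588 CPM.

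In white adipose tissue none of the 9 genes was called. With edgeR 0 of 9 passed, as did 0 of all 14030 genes tested (0%), and DESeq2 also called 0 of the 9. At an unadjusted p under 0.05, 1 of the 9 was higher, against 13.4% of all genes (5.5% higher and 7.91% lower). The groups did not overlap in 2 of the 9, Tgfb2 and Tgfbr2, against 20.6% of all genes. The median log2 fold change of the 9 was −0.04 and that of all genes 0.01.

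Smad7 was the gene under 0.05. It stood at 11.3, 9.65 and 6.18 CPM in vehicle fat 1 to 3 and at 25.6, 26.3 and 10.7 CPM in halofuginone fat 1 to 3. Halofuginone fat 1 and 2 lay above every vehicle library and halofuginone fat 3 inside their range. The log2 fold change was 1.21 (SE 0.39, 95% interval 0.27 to 2.14), with an unadjusted p of 0.0184 and an edgeR adjusted p of 0.284. In 1 edgeR fit of all 4 groups, which pools the spread over both tissues, the adjusted p was 0.0390.

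Ccn2 stood at 46.3, 45.9 and 132 CPM in vehicle fat and at 57.5, 35.7 and 26.9 CPM under halofuginone. The log2 fold change was −0.90 (SE 0.49, edgeR adjusted p 0.476), a value that rested on vehicle fat 3 and was −0.20 without it. That library also had the most macrophage markers (5122 CPM, against 1842 to 3550 CPM in the other 5). Its smooth muscle markers were the fewest, at 537 CPM against 787 to 1187 CPM. The part of these markers in the value of Ccn2 was not tested.

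Acta2 was abundant in fat, at 636, 395 and 217 CPM in vehicle and 436, 329 and 286 CPM under halofuginone. The treated libraries lay inside the vehicle range (log2 fold change −0.25, SE 0.39, edgeR adjusted p 0.830), and the sign turned to 0.20 without vehicle fat 1. Smooth muscle markers followed the same order in vehicle fat, at 1187, 1033 and 537 CPM in libraries 1 to 3, and in treated fat, at 907, 809 and 787 CPM, and their part in Acta2 was not tested.

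Of the ligands in fat, Tgfb2 stood at 4.80, 4.55 and 7.91 CPM in vehicle and 4.25, 3.25 and 3.10 CPM under halofuginone (−0.70, SE 0.33, edgeR adjusted p 0.410). Vehicle fat 3 was the highest, and without it the log2 fold change was −0.40. Tgfb1 stood at 145, 149 and 197 CPM and at 110, 220 and 147 CPM (−0.04, SE 0.28, 95% interval −0.71 to 0.62). Tgfb3 stood at 37.8, 37.1 and 21.2 CPM and at 36.1, 28.6 and 32.6 CPM (0.02, SE 0.25, 95% interval −0.57 to 0.60). For Tgfb1 and Tgfb3 the estimates lay near 0, with intervals that leave room for changes of either sign. Tgfbr2 stood at 302, 306 and 343 CPM and at 298, 295 and 298 CPM, the tightest of the 9 genes in treated fat (−0.09, SE 0.14, 95% interval −0.43 to 0.24). Tgfbr1, its partner, had the widest interval of the 9, at 88.3, 33.9 and 127 CPM in vehicle and 70.2, 137 and 55.0 CPM under halofuginone (0.08, SE 0.52, 95% interval −1.17 to 1.32). Smad3 stood at 39.3, 48.0 and 29.0 CPM and at 35.8, 44.9 and 40.7 CPM (0.06, SE 0.21, 95% interval −0.44 to 0.57).

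Of the 93 other pathway genes tested in fat, 0 were called by edgeR. At an unadjusted p under 0.05 the counts higher and lower were 0 and 1 of 14 ligand genes, 2 and 0 of 11 receptor genes, 4 and 0 of 24 Smads, partners and inhibitors, 4 and 4 of 22 targets, and 0 and 4 of 25 myofibroblast genes. By DESeq2 the calls in these lists were 1 ligand gene lower, 1 receptor gene higher, 2 of the Smads and inhibitors higher, 4 targets lower and 2 myofibroblast genes lower. Over all genes DESeq2 called 655 of 18572 in fat, or 3.53%. All values in the next 2 paragraphs are from edgeR, and none passed that test. Of the genes named there, DESeq2 called Acvr1b, Nog and Smad9 higher. It called Itgb5, Col1a1, Col1a2, Col3a1, Fap and Actn1 lower. Their DESeq2 adjusted p ran from 0.00166 for Col1a1 to 0.0499 for Smad9, so these calls depend on the test.

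In the Smad and inhibitor list of fat, Nog, which encodes the BMP antagonist noggin, stood at 1.50, 5.55 and 3.29 CPM in vehicle and 19.6, 18.4 and 8.00 CPM under halofuginone (2.15, SE 0.54, adjusted p 0.210). Smad9, of the BMP branch, stood at 1.44, 1.22 and 0.693 CPM and at 4.93, 2.46 and 2.74 CPM (1.59, SE 0.47, adjusted p 0.251). Smad6, the inhibitory Smad of the BMP branch, had 0.96 (SE 0.38, adjusted p 0.346) and was named after its value was seen.

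Among fat receptors, Acvr1b (45.4 to 60.1 CPM in vehicle, 76.1 to 77.6 CPM treated, 0.53, SE 0.15, adjusted p 0.245) and Acvr1c (32.9 to 45.0 and 50.1 to 66.8 CPM, 0.51, SE 0.19, adjusted p 0.325) did not overlap between the groups. Nor did the co-receptor gene Tgfbr3, at 0.45 (SE 0.20, adjusted p 0.402). Over all genes tested in fat 20.6% did not overlap. These genes, and Itgb5, Actn1 and Vim below, were named for their small p, so their separation is no result of its own. Of the genes that act on the ligand, Itgb5 was below vehicle in all 3 treated libraries (266 to 284 and 161 to 202 CPM, −0.55, SE 0.15, adjusted p 0.233). Ltbp3 had −0.65 (SE 0.29, adjusted p 0.387) and Lrrc32, which holds latent TGF-beta on the cell surface, 0.57 (SE 0.27, adjusted p 0.419). Without 1 library these ran from 0.27 to 0.55 for Tgfbr3, −0.86 to −0.41 for Ltbp3 and 0.36 to 0.81 for Lrrc32. The 3 targets with the smallest p were the collagen genes Col1a1, Col3a1 and Col1a2 (adjusted p 0.168, 0.179 and 0.210), all lower in estimate. Id1, called in liver, stood at 58.1, 48.2 and 12.6 CPM in vehicle fat and at 129, 113 and 83.2 CPM under halofuginone (1.45, SE 0.52, adjusted p 0.314). Among myofibroblast genes, Fap, a fibroblast protease gene, stood at 8.87, 7.99 and 14.3 CPM and at 4.42, 4.83 and 4.58 CPM (−1.17, SE 0.28, adjusted p 0.191). Actn1 (−0.81, SE 0.20, adjusted p 0.210) and Vim (−0.77, SE 0.24, adjusted p 0.272) also lay below vehicle in all 3 treated libraries. Adipose progenitor and fibroblast markers summed to 1415 to 1700 CPM in vehicle and 809 to 1154 CPM in treated fat, with 0 of 8 called by edgeR (4 lower and 1 higher at an unadjusted p under 0.05). Macrophage markers summed to 2808 to 5122 and 1842 to 2227 CPM, with 0 of 7 called by edgeR (5 lower at an unadjusted p under 0.05). The part of either in these values was not tested.

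The 16 libraries were fitted together to ask whether fat responded unlike liver. The value is the change in fat less the change in liver. Of the 9 genes 0 were called by edgeR and 0 by DESeq2, and 1 had an unadjusted edgeR p under 0.05. Over all 14853 genes tested 0.949% were called, 0.417% with a higher and 0.532% with a lower effect in fat. Smad7 had the smallest p, with a difference of 0.80 (SE 0.35, unadjusted p 0.0367, edgeR adjusted p 0.280). For Ccn2 the difference was 0.18 (SE 0.46, 95% interval −0.80 to 1.16) and for Acta2 0.44 (SE 0.39, 95% interval −0.39 to 1.27), so neither was shown to respond differently in fat. Among the 95 other pathway genes 4 were called, in a test whose number of calls over all genes depended strongly on single libraries. Tpm2 (2.45, SE 0.52, adjusted p 0.0401) and Tagln (1.65, SE 0.37, adjusted p 0.0485) fell in liver, where their log2 fold changes in fat were −0.14 and 0.08. Actn1 (−1.24, SE 0.22, adjusted p 0.0192) and Itgb5 (−0.94, SE 0.19, adjusted p 0.0323) rose in liver and had negative estimates in fat.

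Vehicle fat was then compared with vehicle liver to see where these genes are expressed. Relative to TMM scaling over both tissues, 6 of the 9 were higher in fat and 0 lower, against 72.3% of all genes called (40.9% higher and 31.5% lower). The same 6 did not overlap between the tissues, against 68.8% of all genes. Acta2 had the widest difference, at 4.24 ± 0.928 CPM in liver (SD, n = 5) and 255 ± 130 CPM in fat (SD, n = 3), CPM here being scaled over both tissues. Its log2 fold change was 5.91 (SE 0.30), a fold of 60.0. Tgfb3 followed at 3.22 (SE 0.24), Tgfb2 at 2.97 (SE 0.41), Tgfb1 at 2.37 (SE 0.18), Tgfbr2 at 2.13 (SE 0.16) and Ccn2 at 1.54 (SE 0.32), each with an edgeR adjusted p of at most 0.000404. Not called were Tgfbr1 (0.49, SE 0.31, adjusted p 0.159), Smad3 (0.33, SE 0.20, adjusted p 0.154) and Smad7 (−0.35, SE 0.25, adjusted p 0.225). Single libraries decided 2 of these: Tgfbr1 was at 0.86 without vehicle fat 2 (adjusted p 0.00594) and 0.08 without vehicle fat 3, and Smad3 was at 0.51 without vehicle fat 3 (adjusted p 0.0382) and 0.13 without vehicle fat 2. All 3 also depend on the scaling: by library size alone, which shifts the median of all genes by 1.19, they were at 1.68, 1.52 and 0.84 and all called.

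For 6 of the 9, whose mean reached 5 CPM in liver and in fat (Tgfb2, Tgfb3 and Acta2 did not), the genes that moved most like them within groups were sought among 8133 genes with the same minimum, over all 16 libraries after the group means were subtracted. Tgfbr1 had the closest, Dennd4c (Pearson's r 0.97) and Vma21 (0.97), and then Smad3 with Pnkd (0.91) and Plekhg3 (0.91). Tgfb1 went with Ttyh2 (0.88) and Itga9 (0.86), and Smad7 with Ahcyl1 (0.83) and Cnbp (0.82). Tgfbr2 went with Ensa (0.80) and Flii (0.79), and Ccn2 with Cep76 (0.79) and Ptges3 (0.78). For Smad7 the likeness came from the 6 fat libraries (0.96 for Ahcyl1 and 0.96 for Cnbp) more than from the 10 livers (0.31 and 0.23). The same held for Dennd4c with Tgfbr1 (0.998 in fat and 0.60 in liver) and Ttyh2 with Tgfb1 (0.99 and 0.55). These values describe the libraries, which share depth and composition, and were chosen as the highest of many.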

How the data were processed

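RNA was captured on oligo(dT) beads and sequenced, per the labels' protocols. Per the submitters' processing notes, fastp 0.18.0, Bowtie2 2.2.8, HISAT2, StringTie 1.3.1, RSEM and the genome build mm39 were used, without their roles. Per the file headers, the authors deposited gene counts and FPKM for each library. The deposited counts are whole numbers, but in each library 1 to 31 genes with an FPKM above 0 are listed at 0 counts, and rounded estimates are possible. Strand use is not given in the sources used here, so reads of overlapping and antisense genes cannot be told apart. Symbols were matched for 22267 of 22322 identifiers. No 2 libraries of a group agreed within sampling noise.

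Liver and fat were fitted separately by the two-sided quasi-likelihood test of edgeR 4.0.16 (R 4.3.3) after filterByExpr and TMM scaling, with Benjamini-Hochberg adjustment over all genes. Fold changes refer to TMM scaling. Differences between tissues came from 1 fit of all 16 libraries, taken as independent. The authors' FPKM were tested by limma 3.58.1 on the log2 scale after adding 1 or 0.1, and DESeq2 1.42.0 was a further alternative. Tested on simulated counts, edgeR called 86% of the well-counted genes changed by 1 on the log2 scale in the liver design (12390 genes) and 63% in the fat design (14150 genes). The simulated counts had the same fixed spread for all genes and both tissues, which was not estimated from these libraries. These shares therefore do not measure what could be detected in the real libraries. Named were all 9 genes and, for each of 5 lists and each tissue, the 3 other genes with the smallest p; further genes are named where a count covers 5 or fewer or as background. The genes and lists were chosen with earlier results of these data known, so they are no independent support. Some genes that the naming rule or a count covers are not reported here by name. No protein sequences were used here.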

Additional observations from a re-analysis of the deposited data

Results flagged for a closer look

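Among 48 sets of 5 liver values, 2 had an extreme library whose distance to its neighbour was over 0.71 of the whole range; about 2.4 such sets come by chance. Tpm2 in halofuginone liver 1 was at 5.46 CPM, with the next treated liver at 2.01 CPM (gap 0.846 of the range), and it still lay below every vehicle liver. Acvr1, a type I receptor gene, was at 18.5 CPM in vehicle liver 2, with the next vehicle liver at 14.3 CPM (gap 0.747).

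A drug effect that differed between the tissues was found for 4 genes by the edgeR test of the difference, all outside the 9. The fat effect minus the liver effect was −1.24 for Actn1, −0.94 for Itgb5, 1.65 for Tagln and 2.45 for Tpm2 on the log2 scale. Over all genes edgeR called 141 differences. The number was 34 without halofuginone liver 3, 1053 without halofuginone liver 1 and 23 with the replicate number as a block. Whether these genes kept their calls in such fits was not examined.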

How the results depend on the processing

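The fall of Ccn2 in liver passed under every alternative run, whereas the calls of Acta2 and Smad7 did not. Of the 9 genes, 3 were called in liver, 1 to 3 without 1 library, and 1 each by limma on FPKM with a pseudocount of 1, by limma with 0.1 and in 1 fit of all 4 groups. In fat 0 were called, and 1 (Smad7) in 1 fit of all 4 groups, where the log2 fold change was 1.18. Acta2 in liver had adjusted p-values of 0.0540 and 0.0549 by limma and 0.0760 in 1 fit of all 4 groups. Smad7 in liver had 0.0584 with no filter on low counts, 0.0540 and 0.0537 by limma and 0.267 in 1 fit of all 4 groups. The cause was not tested.

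Same-numbered vehicle and halofuginone libraries did not deviate together (correlations −0.156 to 0.0566 in liver and −0.570 to 0.111 in fat). For liver with fat the correlations were 0.0537 to 0.139 in vehicle and −0.0779 to 0.0304 under halofuginone. With so few libraries these values cannot exclude a shared mouse or batch, and the main fits used no pairing. With the replicate number as a block, Smad7 in liver was at 0.38 with an edgeR adjusted p of 0.0827, and 1901 genes were called in liver in place of 2850. The block left 5 lower genes in the myofibroblast list in place of 9, and 0 higher in the Smad and inhibitor list in place of 4.

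The signs of some values turned. The Tgfb1 change in liver was 0.0040 and 0.0050 by limma with pseudocounts of 1 and 0.1, that in fat 0.0224 by library size alone, and its difference between tissues −0.0274 and −0.0292 by limma. Tgfb3 in fat was at −0.0023 in 1 fit of all 4 groups. The Smad3 difference was 0.0176 with DESeq2 size factors, 0.0176 by DESeq2, 0.0047 with no filter and 0.0537 with the replicate block. Vehicle fat against vehicle liver gave Smad7, at −0.35 and not called, at 0.84 by library size alone and 0.68 and 0.95 by limma, each with an adjusted p of at most 0.00895.

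Leaving out 1 library turned signs in these ranges: Smad3 in liver −0.14 to 0.15; in fat Tgfb1 −0.31 to 0.16, Tgfb3 −0.20 to 0.16, Tgfbr1 −0.37 to 0.52, Smad3 −0.11 to 0.24 and Acta2 −0.56 to 0.20. For the difference between tissues they were Tgfb1 −0.18 to 0.30, Tgfb2 −0.36 to 0.13, Tgfbr1 −0.48 to 0.39, Smad3 −0.19 to 0.20 and Ccn2 −0.19 to 0.84. Over all genes the calls in liver were 5312 without halofuginone liver 1 and 1275 without halofuginone liver 3. In fat edgeR called 0, DESeq2 655 and limma with a pseudocount of 1 called 17. Depth limits Tgfb2 in liver, and 3 libraries a group limit fat.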
